A study of Arabidopsis thaliana with 48 samples.

Results

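Of the 32833 Arabidopsis nuclear and organellar gene rows (identifiers beginning AT) in the expression tables, 75 were higher in the Elongator mutant elp2-5 than in wild type in leaves and in roots alike. A gene was a member where its lowest elp2-5 library reached at least 1 FPKM (fragments counted on a gene, scaled to transcript length and library size) and at least 1.3 times its highest Col-0 library, over 8 libraries of each genotype in each organ. In leaves 626 rows met this rule (1.91% of the AT rows) and in roots 240 (0.731%), and the 75 are the rows that met it in both. The members were therefore chosen by their elp2-5 and Col-0 values, and those values are given below as a description without a test. All 75 matched the RefSeq annotation of TAIR10.1. Of these, 74 were protein-coding genes and 1 was a long non-coding RNA.

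The study grew Arabidopsis thaliana seedlings of 3 genotypes on solid medium plates under constant light for 11 days, either aboard the International Space Station (flight, FT) or in matching Veggie hardware at Kennedy Space Center (ground control, GC). The genotypes were the wild type Col-0, which is the background of both mutants, elp2-5, a mutant of the Elongator subunit gene ELP2, and met1-7, a mutant of the maintenance DNA methyltransferase gene MET1. All were fixed in RNAlater, and leaves and roots were dissected from the same plants, giving 12 groups of 4 libraries, 48 in all. A replicate combined the plants of a pair of plates, except 1 met1-7 flight replicate that came from a single plate. Each mutant is represented by a single allele, and the p-values measure the spread between these pools of plants.

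Elongator is a conserved complex first found with elongating RNA polymerase II. Its catalytic subunit is an acetyltransferase, and the complex starts the modification of the wobble uridine of a set of tRNAs, so that loss of any subunit affects the decoding of certain codons as well as transcript levels. In Arabidopsis, Elongator mutants are known for narrow leaves, altered root growth and hormone responses, and changes in immune and oxidative stress responses. ELP2 itself is the WD40-repeat scaffold subunit.

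ELP2 was measured first as a check of the labels. Its leaf medians were 8.08 FPKM (Col-0), 3.57 (elp2-5) and 7.32 (met1-7), and its root medians 13.1, 5.50 and 12.9. ELP2 transcript was thus lower but still present in the elp2-5 libraries. The MET1 medians of met1-7 were 13.02 FPKM in leaves and 13.8 in roots, beside 13.5 and 19.0 in Col-0, so the transcript level alone does not mark the met1-7 libraries. Summed over 8 leaf markers (such as RBCS1A and RCA), leaf libraries had 30514 to 38833 FPKM in Col-0, 24439 to 30270 in elp2-5 and 31400 to 38873 for met1-7, and all 8 medians were lower in elp2-5 than in Col-0 leaves. Summed over 9 root markers, leaf libraries had 192 to 379 FPKM in Col-0, 384 to 619.9 in elp2-5 and 210.3 to 328.5 for met1-7, and 5 of the 9 medians were higher in elp2-5. BGLU23 made up most of this sum, with leaf medians of 268 and 502 FPKM in Col-0 and elp2-5. The other 8 root markers had leaf medians of 0 to 2.41 FPKM, with the root hair regulator RHD6 at 0 in all genotypes. In roots the root marker sum was 4982 to 6265 FPKM in Col-0 and 3891 to 5040 in elp2-5, and the leaf marker sum 268 to 587 and 259.7 to 399.7. The part of these shifts in tissue markers in the differences below was not tested. Relative depth, read from low-level genes, differed between libraries by no more than 0.862 to 1.17 times the middle of their organ, and no pair of libraries held identical values. Over all genes tested in leaves, elp2-5 minus Col-0 had a median of 0.13 on the log2(FPKM + 0.5) scale, and in roots -0.01. The members, chosen on this contrast, had medians of 1.44 and 1.34.

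**Figure D1:**
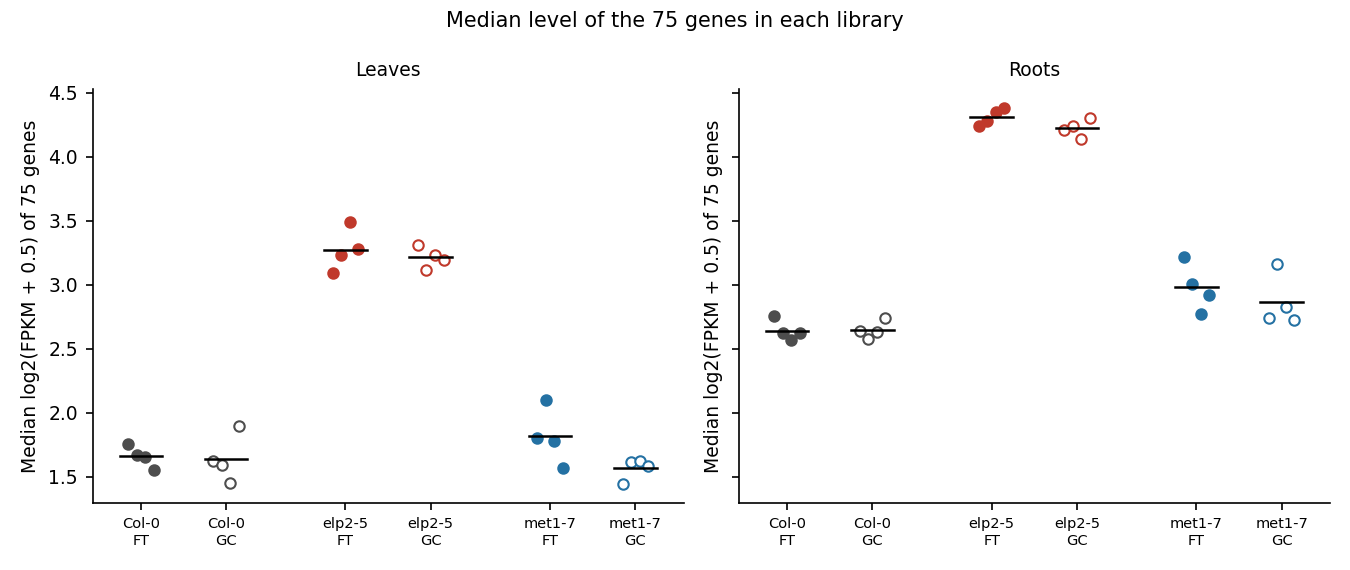
Median level of the 75 genes in each library, as log2(FPKM + 0.5) (y axis), by genotype and environment (x axis), in leaves (left) and roots (right). Each point is 1 library, filled for FT and open for GC, and the line is the mean of 4 libraries. The elp2-5 leaf libraries lie between 3.09 and 3.49 and the Col-0 leaf libraries between 1.45 and 1.90, as the choice of genes fixes, while the met1-7 leaf libraries, which did not enter the choice, lie between 1.44 and 2.101.

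The members spanned low and high levels. In leaves their elp2-5 medians ran from 1.29 to 1663 FPKM with a middle value of 8.84, and the middle value in Col-0 was 2.64. In roots the elp2-5 medians ran from 1.60 to 2089 FPKM with a middle value of 19.6, beside 5.62 in Col-0. The fold of means of elp2-5 over Col-0 was 1.71 to 48.7 in leaves (median 3.22) and 1.56 to 59.1 in roots (median 2.72). It was at least 2 in 67 members in leaves, in 59 in roots and in 56 in both. In these bulk organs, more cells that express a gene and more RNA per cell cannot be told apart. The threshold lay inside a continuous range of values. Just inside were AT1G52315, NUDT17 and PCK1, with ratios of 1.308, 1.309 and 1.310 in leaves, and just outside AT4G27560 at 1.297 in leaves and AT5G53420 and CAD6 at 1.295 and 1.293 in roots.

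Part of the set had little transcript in wild type. In leaves, 21 members had a Col-0 median under 1 FPKM, and in roots 18. All 75 passed the filter for testing (at least 1 FPKM in at least 4 libraries of the organ), but 16 in leaves and 12 in roots passed it only through their elp2-5 libraries. Small differences of low-level genes are compressed by the added 0.5 FPKM.

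Promoter sequence is shown first, because the members that stood farthest from wild type included genes with a shared 13-base element. The mitochondrial dysfunction motif, which is bound in Arabidopsis by membrane-anchored NAC factors such as NAC017 in mitochondrial retrograde signalling, was searched as CTTG, any 5 bases, and then CAAG or CACG, on both strands of the 250 bases before each annotated gene start. It was added to the search after the members had been seen. It lay before 6 of the 74 protein-coding members (8.11%), beside 328 of 27443 protein-coding genes of the genome (1.195%) and 145 of 17784 such genes tested in both organs (0.815%). Among the rows that met the rule in leaves it was found in 14 of 620 (2.26%), and in roots in 8 of 237 (3.38%). Both of these sets contain the 6 members and are not separate from them. Only 8 of the 14 leaf genes and 2 of the 8 root genes were not members. A letter match is a description of the sequence and not a binding site. The 7 matches, with 8 flanking bases on each side and the motif in capitals, read 5′ to 3′ along the strand of the gene in TAIR10.1, were as follows.
NAC044, chr3:229002-229030, plus strand: gtatctggCTTGGGGAGCAAGgttagcgg
AT5G55270, chr5:22419091-22419119, plus strand: gtgggaaaCTTGTTGGGCAAGtcctttcc
AT1G17960, chr1:6183852-6183880, minus strand: ctctaaagCTTGGCCCGCAAGtcacttta
NUC-L2, chr3:6408116-6408144, minus strand: ttacaaaaCTTGGGAGTCAAGtgtctaga
AT2G18193, chr2:7919415-7919443, minus strand: gtaatttcCTTGCACCGCACGcttccttc
AT2G04050 distal, chr2:1339663-1339691, minus strand: tattagaaCTTGATTCCCAAGtaatcttt
AT2G04050 proximal, chr2:1339604-1339632, minus strand: tatacgaaCTTGGTCCCCAAGtatatttc

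The matches began between 48 bases (AT5G55270) and 215 bases (AT2G04050 distal) before the gene start. The form ending in CAAG reads the same in outline on both strands, and each such match also fits the looser letters CTTNNNNNNNAAG of the motif bound by SOG1, the central regulator of the plant DNA damage response. CTTNNNNNNNAAG was in 10 of 74 member windows (13.5%) and in 9.71% of all windows. The whole 250-base windows of the member with the widest gap to wild type and of the member with both copies of the element are given with the motif in capitals.
NAC044, chr3:228825-229074, plus strand: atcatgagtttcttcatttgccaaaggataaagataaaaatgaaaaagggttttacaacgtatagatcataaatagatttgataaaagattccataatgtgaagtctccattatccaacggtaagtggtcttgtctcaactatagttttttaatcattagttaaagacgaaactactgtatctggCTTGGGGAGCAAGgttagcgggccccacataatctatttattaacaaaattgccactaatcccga
AT2G04050, chr2:1339469-1339718, minus strand: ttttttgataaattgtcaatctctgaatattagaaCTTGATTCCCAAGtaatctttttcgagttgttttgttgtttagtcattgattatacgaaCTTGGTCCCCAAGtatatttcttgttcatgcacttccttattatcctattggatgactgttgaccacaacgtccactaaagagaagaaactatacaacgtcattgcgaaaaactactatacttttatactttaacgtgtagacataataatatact

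The other elements searched were as follows. The W-box (TTGACC or TTGACT), a site of WRKY factors, was in 35.1% of member windows and 28.4% of all windows. The G-box (CACGTG) was in 13.5% and 6.49%, and the abscisic acid-responsive letters ACGTGG or ACGTGT were in 24.3% and 16.03%, with 8 members holding both. The core of the as-1 element (TGACG) was in 21.6% and 18.6%, the heat shock core GAANNTTC in 5.41% and 9.55%, and TATAAA in 47.3% and 47.3%. Of the elements added after seeing the members, the sulfur-responsive core GAGAC was in 28.4% and 25.8%, the telo-box AAACCCTA in 10.8% and 4.49%, and TGGGCC or TGGGCT in 17.57% and 19.2%.

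The genes were spread over the genome. Chromosomes 1 to 5 held 19, 12, 17, 9 and 18 members. Near ELP2 on chromosome 1, a region that a mutant line can carry along with its mutation, 2 members lay within 500 kb. They were among 171 genes tested in both organs there, beside 75 members among 18516 such genes over the genome. The 2 were the F-box gene AT1G49360, 64.2 kb away, and the GH3 family gene AT1G48660, 336 kb away. Whether the region was carried along was not tested. Only ABCA10 and IPK2BETA on chromosome 5 were members among 5 consecutive annotated genes, with 1 gene and 0.92 kb between them. Coding length had a median of 1040 bases in members and 1155 in protein-coding genes tested in both organs, and 18.9% and 15.01% had a single exon. The AAA, CAA and GAA codons, which are read by tRNAs that Elongator modifies, made up a median of 8.07% of codons in members and 8.21% in the tested genes, with quartiles of 6.97% and 9.42% in members. Apart from SVB and AT3G06355, no member had a near-identical transcript (95% identity over 80% of the shorter one). For these 2 the best match was an overlapping gene. Only the best match was kept, so the search cannot tell whether these 2 have copies elsewhere. Another annotated gene overlapped 15 members, 13 of them on the opposite strand. The 15 were AHP2, ANNAT1, AT1G49360, AT1G52315, SVB, AT1G75290, AT2G18720, ABCG1, AT2G47780, AT3G06355, AT3G09680, AT3G15650, SMZ, SULTR3;2 and AT5G60250. The library kit keeps the strand, but whether counting used it is not given in the sources used here, so reads of such partners may be assigned to either.

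The members are described by role. The grouping was made after their values were seen and carries no test.

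A group of 14 genes holds regulators of transcription and chromatin and includes NAC044. NAC044 encodes a NAC transcription factor that in Arabidopsis acts below SOG1 and delays division after DNA damage. In leaves it had 1.22, 1.67 and 2.27 FPKM in Col-0 (lowest, median and highest of 8), while elp2-5 had 14.0, 17.3 and 22.6 and met1-7 had 1.15, 1.96 and 2.65. The same 3 values for roots were 1.15, 1.90 and 3.12 (Col-0), 20.2, 21.8 and 27.0 (elp2-5), and 1.47, 2.39 and 4.55 (met1-7). Every elp2-5 library was at least 6.16 times the highest Col-0 library of its organ, and the met1-7 libraries lay with Col-0. The folds of means were 9.98 in leaves and 11.5 in roots. NAC085, the close relative that works beside NAC044 and a gene of the same pathway list, had leaf medians of 0.12 FPKM in Col-0 and 1.19 in elp2-5, and root medians of 0.06 and 1.51. It met the rule in roots and missed it in leaves with a lowest elp2-5 library at 0.92 FPKM.

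NAC103, a NAC factor linked to endoplasmic reticulum stress and DNA damage, had elp2-5 medians of 5.47 FPKM in leaves and 9.14 in roots beside 1.62 and 1.59 in Col-0. CUC3, the NAC factor that sets organ boundaries, was lower, at 2.50 and 2.78 FPKM beside 1.07 and 0.81. SMZ, an AP2-type repressor of flowering, had leaf medians of 1.93 FPKM in Col-0 and 11.6 in elp2-5, and root medians of 5.41 and 13.4. Its fold was 6.33 in leaves and 2.46 in roots, so that the organs differed more for SMZ than for most members. LSH1 and LSH3, of the ALOG family of meristem and organ boundary regulators, had folds of 2.48 and 1.88 in leaves and 2.26 and 2.28 in roots.

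Chromatin remodeling 31 (chr31), an SNF2-type ATPase of the CLASSY family in RNA-directed DNA methylation, was at a low level in every library. Its Col-0 libraries lay at 0.41 to 0.75 FPKM in leaves and 0.72 to 0.87 in roots, and its elp2-5 libraries at 1.93 to 2.49 and 1.95 to 2.51. AT4G00250, a storekeeper-related DNA-binding protein, was the member of this group with the largest leaf fold, 17.9, from a Col-0 median of 0.215 FPKM to 4.27. AT5G13240, annotated as a transcription regulator, stood out by its small spread at a higher level. Its 8 Col-0 leaf libraries lay at 19.97 to 24.8 FPKM and its 8 elp2-5 leaf libraries at 67.7 to 79.8, a fold of 3.22, and in roots the fold was 2.85. The rest of the group (WRKY48, the PHD finger gene AT5G58610, the bHLH gene AT5G65320, the WD40 gene PRL2 or AT3G16650, and AHP2, the HOP2-type recombination factor of meiosis) had folds of 2.31 to 3.79 in leaves and 1.99 to 5.89 in roots.

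**Figure D2:**
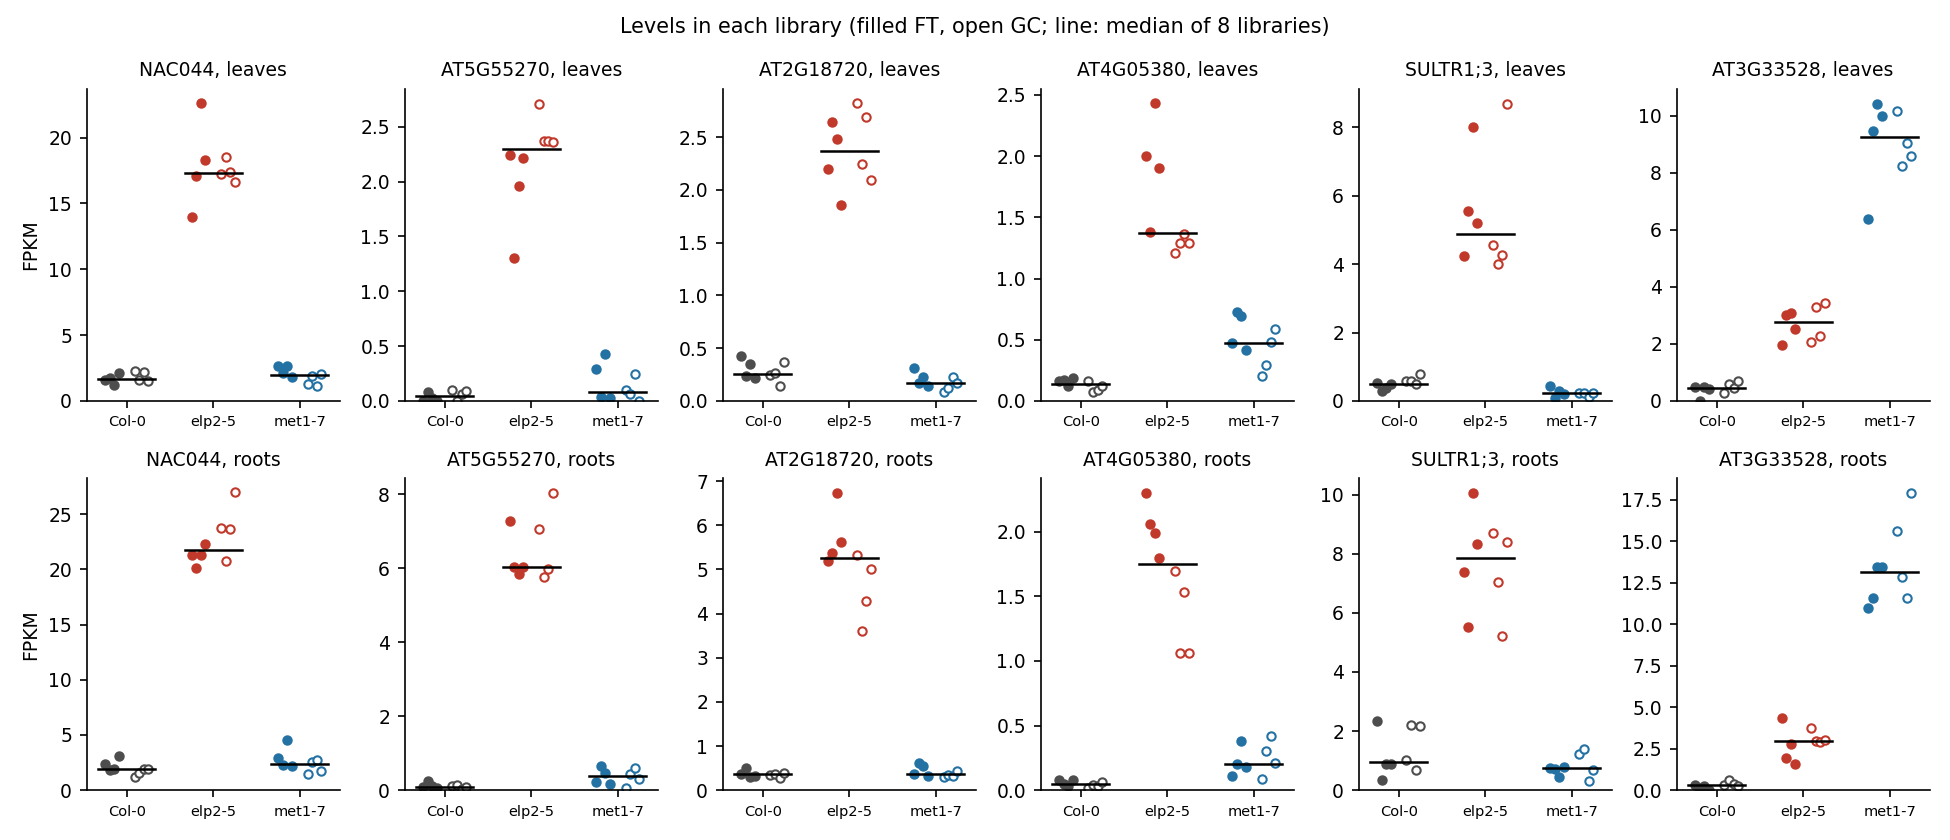
FPKM (y axis, linear from 0) in each library of 6 members by genotype (x axis), in leaves (top) and roots (bottom). Filled points are FT, open points GC, and the line is the median of 8 libraries. In the first 5 genes every met1-7 point lies under every elp2-5 point (for AT4G05380 in leaves, at 0.73 FPKM or less beside 1.21 or more), while in AT3G33528 the met1-7 points lie above elp2-5.

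Of the 6 members tied to the ribosome and translation, 5 had folds of at least 2 in each organ. AT2G18720 encodes a protein of the EF1A and IF2 gamma family, whose bacterial and eukaryotic relatives carry tRNAs to the ribosome. It was near the floor in Col-0, at 0.14, 0.255 and 0.43 FPKM in leaves (lowest, median, highest) and 0.27, 0.355 and 0.50 in roots. In elp2-5 it was at 1.86, 2.37 and 2.82 FPKM in leaves and 3.61, 5.27 and 6.74 in roots. The met1-7 medians, 0.17 and 0.355 FPKM, lay within the range of the Col-0 libraries. The gap between the genotypes was clear in each organ, but an antisense gene overlaps AT2G18720.

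AT1G17960, a threonyl-tRNA synthetase that charges tRNA with threonine, had Col-0 medians of 0.76 FPKM in leaves and 2.24 in roots and elp2-5 medians of 3.86 and 10.2. NUC-L2 encodes the less expressed of the nucleolins, proteins that bind ribosomal DNA and its transcripts in the nucleolus. Its medians were 1.27 and 7.52 FPKM in Col-0 and elp2-5 leaves, and 3.93 and 19.6 in the roots. Its abundant relative NUC-L1 did not meet the rule in either organ, with leaf medians of 163 FPKM in Col-0 and 206 in elp2-5. The ribosomal protein genes AT3G09680 (S12/S23 family) and AT5G39850 (S4) had leaf folds of 7.16 and 1.95 and root folds of 2.72 and 1.84.

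The single non-coding member, AT3G06355, lies on chromosome 3 at 14199575 to 14200076 (plus strand, TAIR10.1) and contains the annotated 5.8S ribosomal RNA gene AT3G41979. Its reads are therefore not separate from ribosomal RNA, although the libraries were made from poly(A)-selected RNA. Its Col-0 median was 209 FPKM in leaves and 287 in roots, and its elp2-5 median 608 and 772. AT3G41979 was listed at a median of 0 in every genotype and organ. The neighbouring 18S gene AT3G41768 had leaf medians of 2202 FPKM in Col-0 and 2307 in elp2-5, and root medians of 5278 and 7431. How far residual ribosomal RNA in the libraries bears on AT3G06355 was not tested.

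All 4 members tied to sulfur supply had folds of at least 2.5 in both organs. SULTR1;3, a sulfate transporter of the phloem, had 0.30, 0.505 and 0.78 FPKM in Col-0 leaves (lowest, median, highest) and 4.00, 4.88 and 8.69 in elp2-5 leaves. In roots it had 0.34, 0.95 and 2.35 FPKM in Col-0 and 5.22, 7.86 and 10.1 in elp2-5. The fold was 10.8 in leaves and 5.77 in roots. SDI1 (ATSDI1), which represses glucosinolate synthesis when sulfur is short, had medians of 19.5 and 126 FPKM in leaves of Col-0 and elp2-5, and 9.85 and 23.6 in roots. LSU2, named for its response to low sulfur, had 19.8 and 83.4 FPKM, and 31.4 and 87.2. SULTR3;2 had the smallest leaf fold of the 4, 2.52, and a root fold of 4.27.

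Other sulfur genes were looked up after these values were seen. LSU1, the glutathione-degrading enzyme gene AT5G26220 (GGCT2;1), APR3 and SHM7 met the rule in leaves and not in roots. LSU1 had medians of 22.6 and 155 FPKM in Col-0 and elp2-5 leaves, and 9.86 and 27.4 in roots. AT5G26220 had 4.74 and 36.4 FPKM in leaves and 3.05 and 8.77 in roots. LSU4, SULTR1;1, SULTR1;2 and SULTR4;2 met it in neither organ. SULTR1;1 went the other way in roots, with 3.06 to 5.88 FPKM in Col-0 and 1.08 to 2.05 in elp2-5. The elp2-5 medians of LSU4, SULTR1;2 and SULTR4;2 lay above those of Col-0 in both organs. The main root transporter SULTR1;2 had a lowest elp2-5 root library of 83.7 FPKM and a highest Col-0 root library of 119. APR3, a reductase of sulfate assimilation, had leaf medians of 134 FPKM (Col-0), 269 (elp2-5) and 121 (met1-7).

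The 9 members grouped under redox reactions, export and AAA-type ATPases had leaf folds of 3.21 to 11.9. DHAR1, the dehydroascorbate reductase that recycles ascorbate, was the most abundant member in both organs. Its Col-0 leaf libraries had a median of 417 FPKM (338 to 607) and its elp2-5 leaf libraries 1663 (1146 to 2114). In roots the medians were 1180 and 2089 FPKM, and the fold was 3.67 in leaves and 1.86 in roots. AOX1C, an alternative oxidase of the mitochondrial electron transport chain, had medians of 0.505 and 2.93 FPKM in Col-0 and elp2-5 leaves, and 0.835 and 3.97 in the roots. Its main relative AOX1A, with leaf medians of 15.7 FPKM in Col-0 and 31.8 in elp2-5, met the rule in neither organ.

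AT2G04050, a MATE efflux family gene, had Col-0 root libraries at 0.02 to 0.20 FPKM and elp2-5 root libraries at 1.34 to 3.07, a fold of 21.2. In leaves the values were 0.4 to 2.4 and 3.58 to 13.7, a fold of 7.72. AT2G18193 and AT4G05380, both P-loop nucleoside triphosphate hydrolases, differed in level. AT2G18193 had medians of 1.82 and 11.2 FPKM in leaves and 11.5 and 36.7 in roots. AT4G05380 had 0.14 and 1.37 FPKM in leaves and 0.045 and 1.75 in roots, with the highest Col-0 library of either organ at 0.19. The thioredoxin superfamily genes AT4G33040 and AT5G11930 had folds of 4.99 and 5.81 in leaves and 1.91 and 3.34 in roots. The peroxidase gene AT2G18150 was at a median of 3.58 FPKM in elp2-5 leaves and at 229.9 in elp2-5 roots. The remaining gene, AT1G75290 (Rossmann-fold family), had folds of 3.21 and 2.91.

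Among 11 enzymes of metabolism, ACC2 had the widest gap to wild type. It encodes the plastid-targeted homomeric acetyl-CoA carboxylase, which makes malonyl-CoA for fatty acids. Its leaf libraries had 1.68, 1.95 and 2.46 FPKM in Col-0 and 6.44, 8.20 and 9.17 in elp2-5, and its root libraries 2.29, 2.97 and 3.74, and 11.2, 21.0 and 22.7. ACC1, its cytosolic relative, had leaf medians of 32.2 FPKM in Col-0 and 40.7 in elp2-5 and met the rule in neither organ. In roots the elp2-5 libraries of ACC1 (29.88 to 53.85 FPKM) all lay under its Col-0 libraries (54.08 to 61.48). PYD4, annotated as PYRIMIDINE 4 and named for pyrimidine breakdown, had medians of 5.44 and 31.6 FPKM in leaves and 6.58 and 22.8 in roots.

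PCK1, phosphoenolpyruvate carboxykinase of gluconeogenesis, was the fourth most abundant member, with elp2-5 medians of 390 FPKM in leaves and 525 in roots and folds of 2.12 and 2.05. SUS3, a sucrose synthase, had a fold of 8.12 in leaves from a Col-0 median of 0.265 FPKM, and 2.76 in roots. PAO2, a peroxisomal polyamine oxidase, had folds of 2.29 and 1.60, and IPK2BETA, an inositol polyphosphate kinase, 1.72 and 1.60. UXS5, which makes UDP-xylose for the cell wall, had 2.39 and 1.68. The others were the hydrolases AT2G47630 and AT3G15650, NUDT17 and the aminotransferase-like AT3G05190, with leaf folds of 1.75, 3.23, 1.81 and 2.49.

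The 6 transporters had leaf folds of 1.99 to 4.00 and root folds of 1.79 to 8.60. UMAMIT36, of a family of amino acid exporters, was the clearest root case. Its root libraries had 2.08, 3.41 and 4.83 FPKM in Col-0 and 24.8, 29.5 and 37.9 in elp2-5, beside 4.65, 6.62 and 12.1 in met1-7. In leaves the medians were 5.26, 16.4 and 3.10 FPKM in the same order of genotypes. The boron transporter gene BOR2 (AT3G62270) was at 71.8 and 126 FPKM in Col-0 and elp2-5 roots and 2.52 and 7.63 in leaves. NIP1;2, an aquaporin-like channel, ABCG1 and ABCA10, ABC transporters, and AT1G59740, a major facilitator, had leaf folds of 1.99, 2.47, 4.00 and 2.09.

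Signalling and protein turnover took in 14 members. AT5G60250, a C3HC4 RING finger gene, had one of the widest gaps, with 0.93 to 2.32 FPKM in Col-0 leaves and 6.95 to 8.66 in elp2-5 leaves, and 0.66 to 0.97 and 6.37 to 9.37 in roots. Annexin 1 (ANNAT1), a calcium-dependent membrane-binding protein, was abundant, with medians of 163 and 408 FPKM in leaves and 845 and 1551 in roots. LTP3, a lipid transfer protein that abscisic acid induces, was at 3.39 and 16.2 FPKM in leaves and 52.2 and 118 in roots. The immune receptor gene ADR1 had folds of 2.14 and 1.58. The TRAF-like genes AT1G65150, AT1G65370 and AT3G58270 had leaf folds of 4.42, 2.47 and 3.32. The RALF family gene AT4G14020, of small secreted signal peptides, had medians of 38.0 and 119.7 FPKM in leaves and 21.3 and 72.2 in roots. The F-box gene near ELP2, AT1G49360, had folds of 1.81 and 1.71, and the GH3 gene AT1G48660 5.68 and 5.88 from Col-0 medians of 0.355 and 0.31 FPKM. The other 4 genes (AT2G18600, AT2G47010, AT3G52870 and AT1G52315) had folds of 1.71 to 3.32 in leaves and 1.76 to 2.71 in roots.

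The 11 little-known members included the largest folds of all. AT5G55270, a single-exon DUF295 gene, had 0, 0.045 and 0.10 FPKM in Col-0 leaves and 1.3, 2.3 and 2.71 in elp2-5 leaves. In roots it had 0.03, 0.095 and 0.25 FPKM in Col-0 and 5.77, 6.03 and 8.03 in elp2-5. The folds, 48.7 and 59.1, rest on Col-0 means close to 0. AT3G24780 and AT5G13210, both of the UCP015417 family, had elp2-5 medians of 2.33 and 2.27 FPKM in leaves and 2.93 and 7.56 in roots, beside 0.495 and 0.61, and 0.515 and 1.44, in Col-0. SVB, a DUF538 gene of trichome branching, was at 118 and 236 FPKM in leaves and 67.3 and 179 in roots. The transcript models of SVB and AT1G56570, a gene on the other strand, match over the full length of the shorter one. The counts of the pair may be shared. AT4G02360, the other DUF538 gene, had folds of 4.48 and 2.47, and AT5G46140, the other DUF295 gene, 2.46 and 2.49. The remaining 5 genes (AT1G17830, AT2G47780, AT3G45730, AT5G21280 and AT3G33528) had leaf folds of 2.44 to 6.32.

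The size of the difference was related but not equal between organs. Over the 75 members the leaf and root differences on the log2(FPKM + 0.5) scale had a Pearson correlation of 0.583 and a Spearman correlation of 0.618, as a description over genes whose leaf and root libraries come from the same plants. The fold was within 2 times in 65 members. It was at least 2 times larger in leaves in 7 (AT2G18150, AT3G09680, SMZ, SUS3, AT4G33040, ATSDI1 and LTP3) and at least 2 times larger in roots in 3 (UMAMIT36, AT2G04050 and AT4G05380). Levels were compared between organs only by their order, since the organs are separate tables. The elp2-5 median was higher in roots in 58 members and the Col-0 median in 52.

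**Figure D3:**
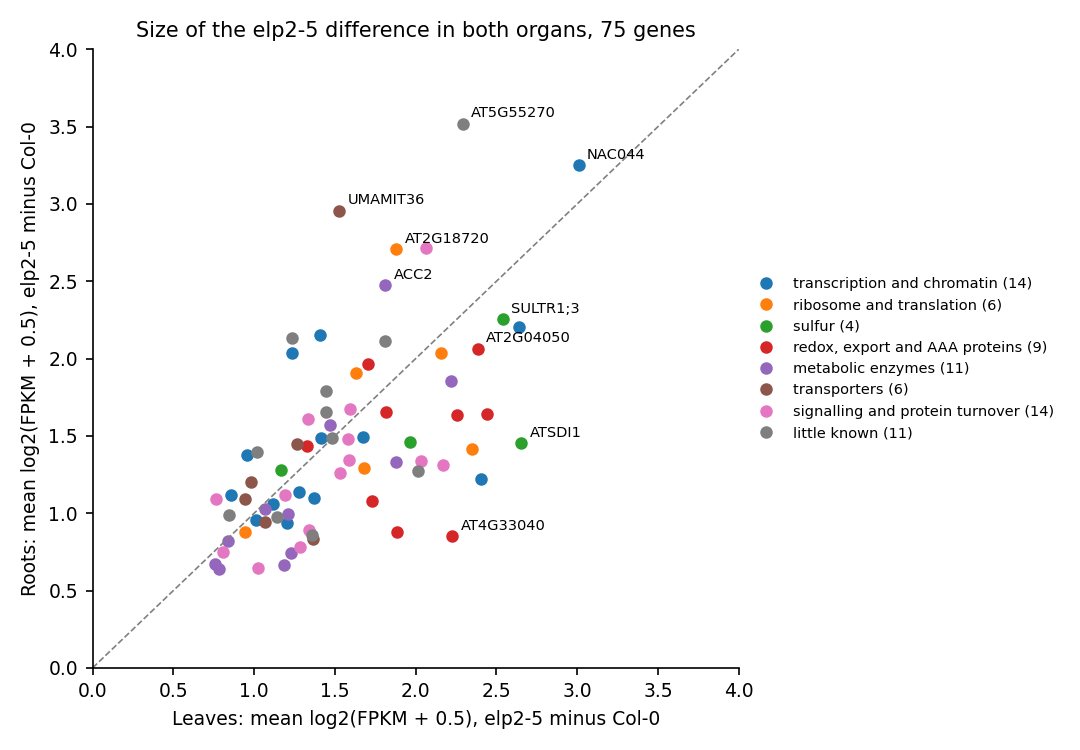
Mean log2(FPKM + 0.5) of elp2-5 minus Col-0 in leaves (x axis) against roots (y axis). Each point is 1 of the 75 genes, coloured by the role used in the text with the number of genes in brackets, and the dashed line marks equal differences. NAC044 lies near the line, UMAMIT36 and AT5G55270 lie above it and ATSDI1 and AT4G33040 below it.

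The met1-7 libraries did not enter the choice of members and show how the same genes stood in a mutant of another pathway, but the Col-0 and elp2-5 libraries they are set against were both used by the rule. In leaves all 8 met1-7 libraries lay under the lowest elp2-5 library in 69 members (background over all genes tested 16.7%) and in roots in 64 (7.24%), and in 60 in both organs. The rule takes genes with a high lowest elp2-5 library, so nothing about met1-7 is read from the distance of these shares from the background. All 8 lay above the highest Col-0 library in 2 members in leaves (background 1.67%) and in 4 in roots (1.35%). AT3G33528 and AT4G05380 did so in both organs, and AT1G48660 and AT5G21280 in roots. Of these, AT4G05380 in both organs and AT1G48660 in roots reached the filter for testing only through their elp2-5 libraries. The members' median met1-7 minus Col-0 difference was 0.06 on the log2(FPKM + 0.5) scale in leaves and 0.14 in roots, beside 0.01 and -0.00065 over all genes tested.

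In leaves 13 members were higher in met1-7 than in Col-0 at an adjusted p under 0.05 (17.3% of members, background 11.3%) and 11 were lower (14.7%, background 11.2%). In roots 20 were higher (26.7%, background 7.77%) and 6 lower (8%, background 8.10%). The rule takes genes whose highest Col-0 library is low, so a surplus of higher calls against these Col-0 libraries is not independent of the rule. The balance also moved with the scaling, and quantile normalization gave 11 higher and 15 lower in leaves and 16 higher and 9 lower in roots. The called members that were tested only because of their elp2-5 libraries were SULTR1;3 and AT4G05380 in leaves and AT1G48660, AT4G05380 and AT5G55270 in roots. AT3G33528, an uncharacterised gene on chromosome 3 (14082640 to 14084346, minus strand), was the exception to the order of genotypes. In leaves it had 0, 0.46 and 0.69 FPKM in Col-0, while elp2-5 had 1.95, 2.76 and 3.44 and met1-7 had 6.38, 9.25 and 10.4. In roots it had 0, 0.29 and 0.59 FPKM, 1.55, 2.95 and 4.33, and 11.0, 13.1 and 17.9. All met1-7 libraries of both organs were above all elp2-5 libraries. The met1-7 minus Col-0 difference was 3.39 ± 0.15 (SE) in leaves with adjusted p = 5.98e-14 and 4.18 ± 0.15 in roots with adjusted p = 4.97e-16.

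Apart from AT3G33528, the differences between met1-7 and Col-0 were mostly small, and only ATSDI1 in leaves passed a fold of 2. In leaves the largest higher calls were LTP3, at 0.84 ± 0.26 (adjusted p = 0.0261), AOX1C, at 0.70 ± 0.12 (0.000245), the gene AT3G45730, at 0.64 ± 0.17 (0.0109), and AT4G05380, at 0.61 ± 0.11 (0.000545). AT4G05380, at 0.73 FPKM or less in these libraries, lost its call under quantile normalization (0.0521), which in roots turned its difference from 0.41 (adjusted p = 0.0253) to -0.05 (0.827). LTP3 lost its call in 5 of 16 fits that left out 1 library (Col-0 FT 1 and 3, Col-0 GC 3, met1-7 FT 2 or met1-7 GC 4), with an adjusted p of up to 0.0603. The lower calls were led by ATSDI1, which fell by 1.18 ± 0.19 (adjusted p = 0.000171) to a met1-7 median of 7.16 FPKM beside 19.5 in Col-0 and 126 in elp2-5. UMAMIT36 fell by 0.63 ± 0.18 (adjusted p = 0.0172), DHAR1 by 0.62 ± 0.14 (0.00268), AT3G16650 by 0.57 ± 0.09 (0.00014) and AT2G18600, a ubiquitin-conjugating enzyme gene, by 0.54 ± 0.11 (0.00141). SULTR1;3 fell by 0.49 ± 0.15 (adjusted p = 0.0195, and 0.0744 with 1 FPKM added in place of 0.5), while LSU2 was higher by 0.43 ± 0.11 (0.00715), so that the sulfur members did not move together in met1-7.

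In roots the largest higher calls after AT3G33528 were UMAMIT36, at 0.95 ± 0.16 (adjusted p = 0.000247), AT1G48660, at 0.79 ± 0.11 (2.87e-05), AT5G21280, a hydroxyproline-rich glycoprotein gene, at 0.69 ± 0.08 (1.66e-06), and AT3G45730, at 0.65 ± 0.16 (0.00793). UMAMIT36 was thus lower than Col-0 in met1-7 leaves and higher in met1-7 roots. AT3G09680 was the reverse, higher in leaves by 0.57 ± 0.20 (adjusted p = 0.0471), a call kept in 5 of 16 fits without 1 library (those without Col-0 FT 3, Col-0 GC 1, met1-7 FT 4 or met1-7 GC 3 or 4, with adjusted p of up to 0.106 in the rest). That call was also lost with 0.1 FPKM added, without the filter, under quantile normalization, with a replicate block and with only the libraries compared in the fit (adjusted p of 0.052 to 0.0905). The lower calls were AT5G13210, which fell by 0.52 ± 0.13 (adjusted p = 0.00855), AT3G16650 by 0.30 ± 0.09 (0.0257), AT3G09680 by 0.26 ± 0.09 (0.0399), AT1G49360 by 0.25 ± 0.07 (0.0154), AT5G39850 by 0.21 ± 0.05 (0.00759) and PCK1 by 0.17 ± 0.04 (0.0104). AT3G09680 lost its root call without Col-0 FT 1 or 4, Col-0 GC 1, 2 or 4, met1-7 FT 1 or 2 or met1-7 GC 3 or 4 (adjusted p of up to 0.0943), and AT3G16650 without Col-0 FT 1 or 3, Col-0 GC 3, met1-7 FT 1 or 3 or met1-7 GC 2 (up to 0.0612). With only the libraries compared in the fit these were 0.0743 and 0.0549. AT1G49360, AT3G16650, AT5G39850 and PCK1 were lower in met1-7 in both organs, although AT1G49360 in leaves lost its call with only the libraries compared (adjusted p = 0.0539) and without Col-0 GC 4, met1-7 FT 1 or met1-7 GC 4 (up to 0.0573). Of all calls between met1-7 and Col-0, 19 of 24 in leaves and 18 of 26 in roots held in every fit that left out 1 library.

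**Figure D4:**
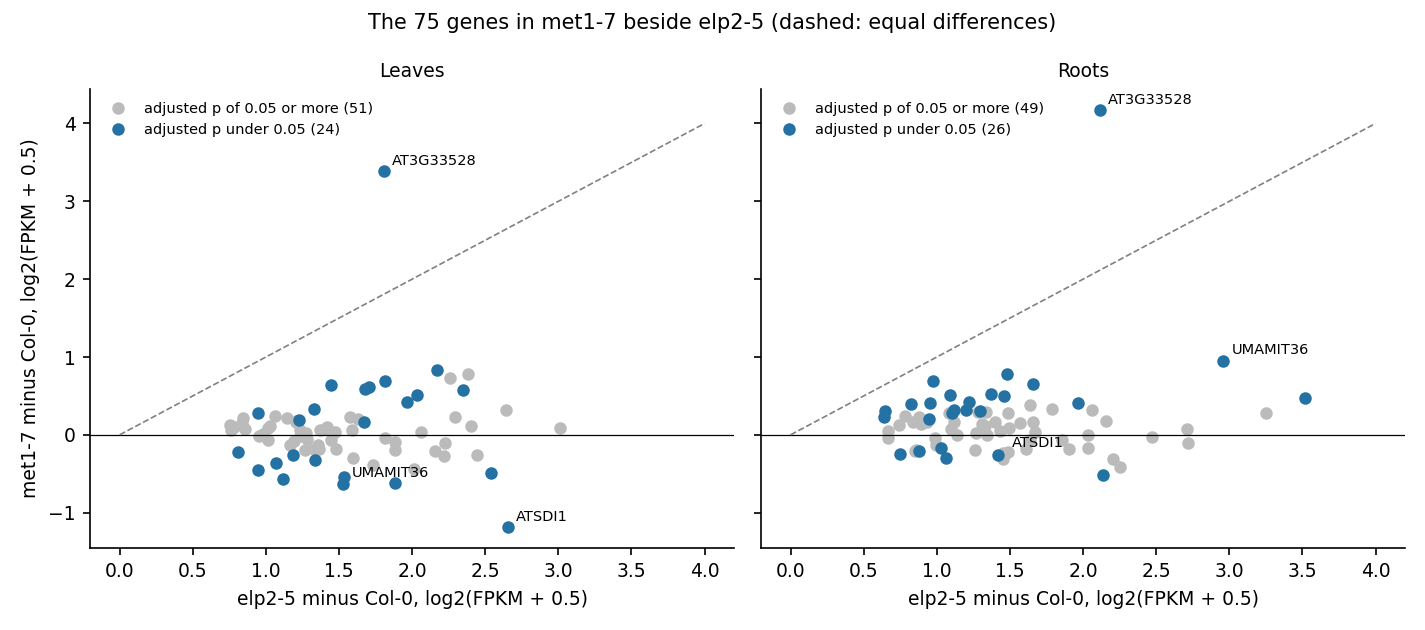
Mean log2(FPKM + 0.5) of met1-7 minus Col-0 (y axis) against elp2-5 minus Col-0 (x axis) for the 75 genes in leaves (left) and roots (right), with the dashed line marking equal differences. Blue points are the 24 leaf and 26 root genes with an adjusted p under 0.05 between met1-7 and Col-0. AT3G33528 alone lies above the dashed line in both organs.

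The comparison of FT with GC asks whether spaceflight moved the members. The rule does not name the environment, but it takes the lowest elp2-5 and highest Col-0 library over FT and GC together. It is therefore less likely to keep genes that vary widely between environments in elp2-5 or Col-0. Low counts of calls in those genotypes are thus not independent of the choice of members. The member calls were as follows, beside the share of all genes tested (background). In Col-0 leaves 3 of 75 were higher in FT (4%, background 8.71%) and in elp2-5 leaves 1 (1.33%, background 0.644%). No member was lower in leaves of Col-0 (background 3.15%) or elp2-5 (0.156%). In met1-7 leaves 9 were higher (12%, background 9.53%) and 1 was lower (1.33%, background 3.38%). Higher calls in roots numbered 2 for Col-0 (2.67%, background 2.09%), 3 for elp2-5 (4%, 3.57%) and 2 for met1-7 (2.67%, 0.852%). None was lower there (background 0.810%, 3.21% and 0.333% in the same order). With a replicate block or median-ratio scaling, elp2-5 roots instead had 2 higher and 1 lower, the peroxidase gene AT2G18150 (adjusted p = 0.0442 and 0.0468, beside 0.0529 here). Quantile normalization gave 5 higher and 2 lower in met1-7 leaves. The members' median difference was -0.00061 to 0.19 over the 6 comparisons, beside 0.01 to 0.07 over all genes tested. The 21 calls involved 14 members, and in 16 of them the 4 FT and 4 GC libraries did not overlap. The calls were picked for a small adjusted p, which favours such gaps, so this count adds no separate support. It was not made over all genes. Only 6 of the 21 held in every fit that left out 1 of the libraries compared. When the fit held only the 8 libraries compared, in place of all 24 of the organ, none of the calls in roots or in elp2-5 leaves was left (adjusted p of 0.0526 to 0.135). In leaves that fit kept AT1G65150 in Col-0 and AT5G39850, AT4G14020, PAO2, UXS5 and AT2G47630 in met1-7.

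PCK1 was called in the most groups. In elp2-5 leaves its 4 FT libraries had 490.6, 400, 483 and 453 FPKM and its 4 GC libraries 379.9, 291, 334 and 317. All FT values lay above all GC values, and the difference was 0.47 ± 0.10 (SE) on the log2(FPKM + 0.5) scale with adjusted p = 0.0300. In elp2-5 roots the means were 538 ± 6.37 (SD, n = 4) and 465 ± 40.2 FPKM, with a difference of 0.21 ± 0.06. The same sign and size were seen in met1-7, at 0.36 ± 0.10 in leaves and 0.24 ± 0.06 in roots. In Col-0 the differences were 0.26 ± 0.10 (adjusted p = 0.0884) and 0.13 ± 0.06 (0.231), which did not pass. The adjusted p was 0.0213 in met1-7 leaves, 0.0384 in elp2-5 roots and 0.0493 in met1-7 roots. The elp2-5 leaf call was lost without FT 1, 3 or 4 or GC 2, 3 or 4 (adjusted p of up to 0.107) and the met1-7 leaf call without FT 1 or 4 or GC 2 (up to 0.0933). The root calls were lost without any library but GC 4 in elp2-5 (up to 0.102) and any but FT 3 in met1-7 (up to 0.16). Under median-ratio scaling the PCK1 calls in met1-7 leaves (0.0657), elp2-5 roots (0.0545) and met1-7 roots (0.0805) were lost.

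PAO2 in elp2-5 roots had 51.8, 51.0, 51.3 and 54.8 FPKM in FT and 44.4, 43.7, 41.2 and 42.4 in GC. The groups did not overlap, and the difference of 0.28 ± 0.04 (adjusted p = 0.00237) held without each library in turn (up to 0.016) and was lost with only the 8 libraries compared in the fit (0.0631). SUS3 in met1-7 roots had 7.39, 4.18, 5.41 and 4.84 FPKM in FT and 2.70, 2.67, 3.26 and 3.16 in GC, a difference of 0.77 ± 0.13 (adjusted p = 0.0115) that also held without each library in turn and was lost with only the libraries compared (0.0836). In elp2-5 roots SUS3 differed by 0.48 ± 0.13 (adjusted p = 0.0354), which was lost in 5 of 8 fits (without FT 1, 3 or 4 or GC 2 or 4, up to 0.118).

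**Figure D5:**
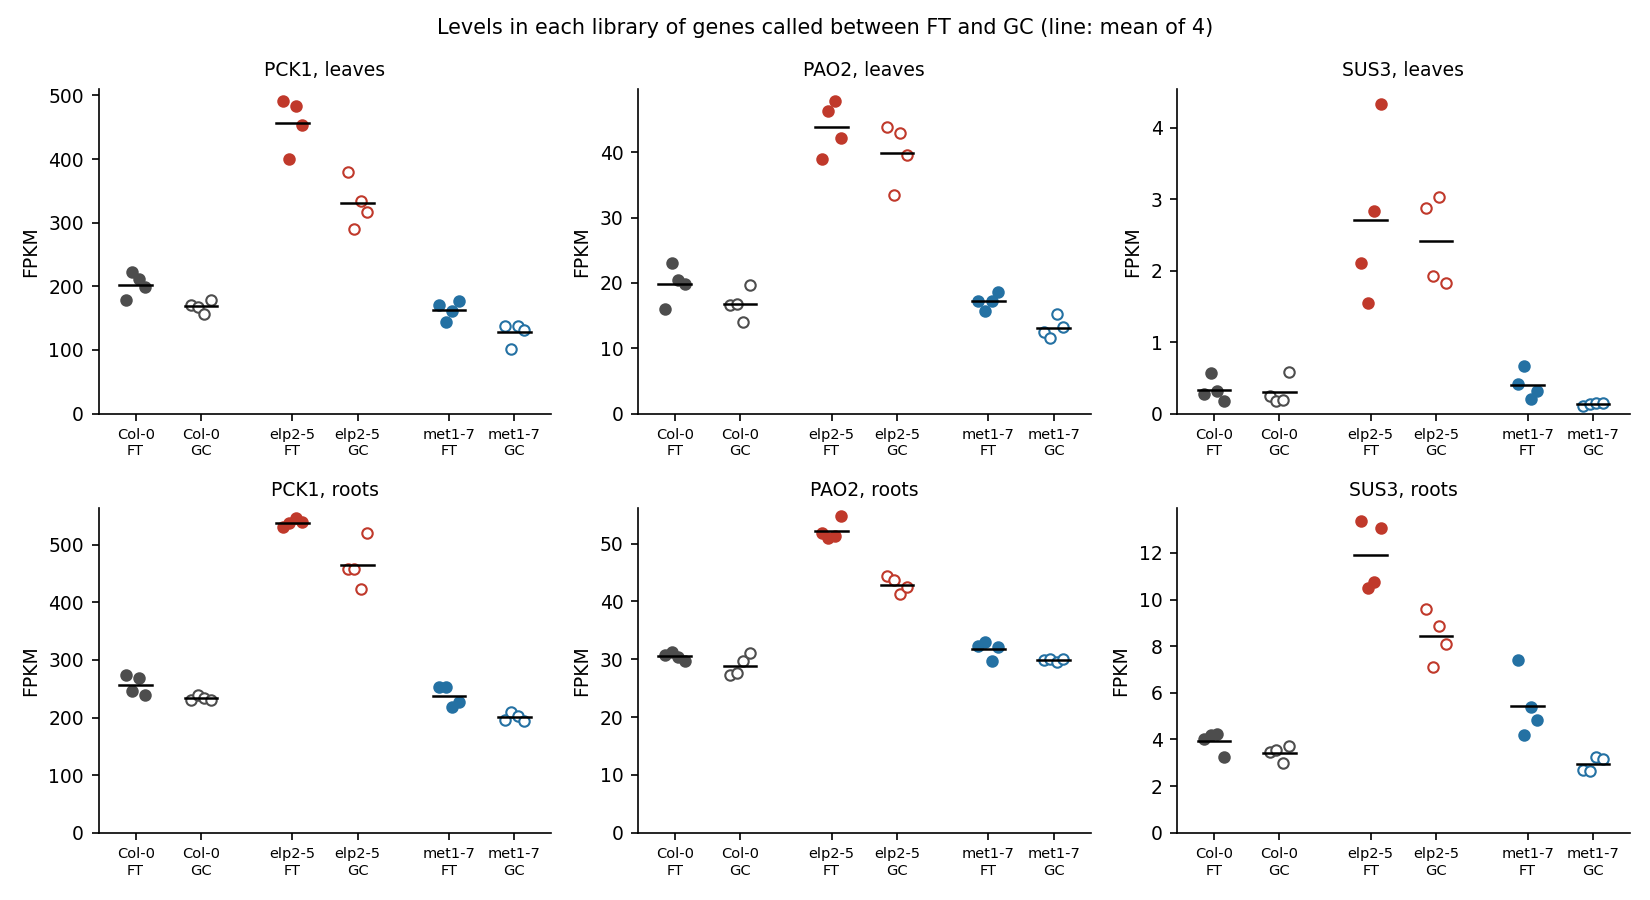
FPKM (y axis, linear from 0) of PCK1, PAO2 and SUS3 in each library by genotype and environment (x axis), in leaves (top) and roots (bottom). Filled points are FT, open points GC, and the line is the mean of 4 libraries. The step between FT and GC is seen for PAO2 in elp2-5 roots, with means of 52.2 and 42.9 FPKM, and the highest SUS3 library of met1-7 roots, at 7.39 FPKM, reaches the lowest of elp2-5 roots, at 7.11.

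In met1-7 leaves the ribosomal protein gene AT5G39850 had 21.6, 30.3, 27.8 and 30.7 FPKM in FT and 18.8, 16.6, 18 and 15.7 in GC. The groups did not overlap, and it was higher in FT by 0.65 ± 0.10 (adjusted p = 0.00052). The RALF family gene AT4G14020 was higher by 0.82 ± 0.18 (0.00617), PAO2 by 0.38 ± 0.11 (0.0295), PYD4 by 1.36 ± 0.35 (0.0172) and AT3G16650, AT4G33040 and AT5G60250 by 0.47 ± 0.13, 0.47 ± 0.15 and 0.48 ± 0.14 (0.0226, 0.0474 and 0.0318). UXS5 was higher by 0.31 ± 0.08 (0.0144). Of these, AT5G39850 and AT4G14020 held without each library in turn. The call was lost for PAO2 without any library but FT 2 or GC 3 (adjusted p of up to 0.103), for AT3G16650 without FT 2 or 4 or GC 2 (0.0941), for AT4G33040 without FT 2 or 3 or GC 1, 3 or 4 (0.169), for AT5G60250 without FT 1, 2 or 3 or GC 3 or 4 (0.102) and for UXS5 without FT 3 or GC 2 (0.0571). Median-ratio scaling and quantile normalization also removed the calls of PAO2 (adjusted p of 0.0593 and 0.067), AT5G60250 (0.0541 and 0.104) and AT4G33040 (0.0782 and 0.123). That of AT3G16650 was lost under quantile normalization (0.0999). With 1 FPKM added, without the filter and with a replicate block AT4G33040 was not called either (0.0535 to 0.0643). The hydrolase gene AT2G47630 was the only lower one, and fell by 0.37 ± 0.09 (adjusted p = 0.0114). PYD4 was the single member past a fold of 2. Its FT libraries were uneven, at 8.69, 19.8, 4.30 and 6.14 FPKM beside 2.03, 5.35, 2.50 and 2.60 in GC, and the call was lost without FT replicate 2 (adjusted p = 0.0565) and with only the libraries compared (0.11). In Col-0 roots PYD4 was higher by 0.59 ± 0.14 (adjusted p = 0.0265) and AT3G06355 by 0.45 ± 0.12 (0.0479), but the first call was lost without FT 2, 3 or 4 or GC 1 or 2 (adjusted p of up to 0.0718) and the second without any library but FT 1 (up to 0.17).

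In Col-0 leaves AT1G65150 had 4.32, 4.59, 5.16 and 5.10 FPKM in FT and 3.32, 2.57, 2.60 and 3.53 in GC. These TRAF-like gene values did not overlap, and the difference of 0.60 ± 0.11 (adjusted p = 0.00184) held without each library in turn. AT1G65370, of the same family, and AT5G60250 were higher by 0.51 ± 0.15 (0.0317) and 0.55 ± 0.14 (0.0162). AT1G65370 lost its call without FT replicates 2 or 3 or GC replicates 1 or 2 (adjusted p of up to 0.127) and AT5G60250 without FT replicate 2 or GC replicates 1 or 3 (up to 0.0713).

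Whether the flight response of a member differed between elp2-5 and Col-0 was tested as the difference of the differences. By limma no member passed in leaves, where 3 of 19877 genes did (0.0151%), or in roots, where none of 21000 did (0.00%). At an unadjusted p under 0.05 there were 4 members in leaves (1937 of all genes) and 5 in roots (2179). The member calls in 1 genotype and not in another are therefore not shown to differ between genotypes. The absence of members here is also not independent of the rule, which disfavours genes with a wide spread between environments in elp2-5 or Col-0.

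Members were counted on lists of genes drawn up for pathways that might be touched. Over the genome there were 75 members among 18516 genes tested in both organs. NAC044 was the only member among 25 genes of the DNA damage response, LTP3 among 28 of abscisic acid and drought, DHAR1 among 28 of reactive oxygen and detoxification, and CUC3 among 24 of leaf polarity and KNOX genes. The other 11 lists, on flavonoids, jasmonate, salicylic acid and defense, heat shock, Elongator and tRNA wobble modification, DNA methylation, the cell cycle, auxin, light and photosynthesis, phosphate starvation and sugar starvation, held none among the symbols that were matched. Of the 14 Elongator and wobble modification symbols only 8 were matched, and chr31, described above, is not a symbol of the DNA methylation list. Of the DNA damage genes, NAC044 and GMI1 met the rule in leaves, and TSO2, ATRAD17, NAC044 and NAC085 in roots. Of all AT rows, tested or not, 1.91% met it in leaves and 0.731% in roots. For the DNA damage genes, the values were as follows. Their median elp2-5 minus Col-0 difference on the log2 scale was 0.37 over 23 tested in leaves and 0.38 over 24 in roots, beside 0.13 and -0.01 over all genes.

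The lists had the following medians on the same scale. The counts meeting the rule stand beside 1.91% of all AT rows in leaves and 0.731% in roots. The flavonoid list had a median of 1.90 in leaves, where 12 of its genes met the rule, and 0.06 in roots, where none did. Abscisic acid and drought genes had 0.85 in leaves with 8 meeting the rule and 0.06 in roots with 2. Jasmonate genes had 1.22 with 7 and 0.49 with 1, and reactive oxygen genes 0.41 with 5 and 0.10 with 1. Leaf polarity genes had 0.44 with 3 and 0.16 with 2, phosphate starvation genes 0.50 with 2 and 0.06 with 2, auxin genes 0.20 with 3 and -0.03 with 1. Sugar starvation genes had -0.31 with 1 and 0.13 with 1, photosynthesis genes -0.32 with 1 and 0.07 with none, and heat shock genes -0.01 with 1 and -0.19 with none. Salicylic acid genes (-0.14 and -0.22), Elongator genes (0.23 and 0.13), DNA methylation genes (0.26 and 0.05) and cell cycle genes (0.32 and 0.11) had none meeting it.

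Between FT and GC the 4 lists that held a member had no call in elp2-5 leaves, where 0.800% of all genes were called. Of 23 DNA damage genes tested in leaves, 2 were higher and 1 lower in Col-0, and of 24 in roots 1 was higher in Col-0 and 1 higher and 1 lower in elp2-5. Of 26 abscisic acid and drought genes in leaves, 7 were higher in met1-7 (all genes 9.53%) and 1 in Col-0 (8.71%), and of 25 in roots 2 were higher in Col-0, 1 was higher and 1 lower in elp2-5, and 1 was higher in met1-7. Of 25 reactive oxygen genes in leaves, 2 were higher in Col-0 and 3 in met1-7, and of 27 in roots 2 were higher and 1 lower in Col-0 and in elp2-5 alike, and 3 higher in met1-7 (all genes 0.852%). Of 24 leaf polarity genes in leaves, 1 was higher in Col-0 and 1 in met1-7, and of 17 in roots 1 was higher in elp2-5. Over all genes tested in roots the higher share was 2.09% in Col-0 and 3.57% in elp2-5. The lower share was 0.810% and 3.21% there, and 3.15% in Col-0 leaves.

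Between met1-7 and Col-0 leaves, where 11.3% of all genes were higher and 11.2% lower, 5 of 23 DNA damage genes were higher and 1 lower, 4 of 26 abscisic acid genes higher and 6 lower, 1 of 25 reactive oxygen genes higher and 3 lower, and 3 of 24 polarity genes higher and 4 lower. In roots, where 7.77% of all genes were higher and 8.10% lower, the respective counts were 2 and 3 of 24, 2 and 2 of 25, 2 and 2 of 27, and 3 and 1 of 17. Nothing particular to a list is read from these counts.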

How the data were processed

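Poly(A)-selected RNA of 48 leaf and root samples was sequenced with a strand-keeping library kit. According to the submitters' processing notes and the study's methods, the authors used FastQC, Trimmomatic, STAR and RSEM with TAIR10 and called genes with edgeR; versions are not given in the sources used here. The deposited values are FPKM per gene, one table per organ, made by the authors by scaling to transcript length and library size. Read depth is not given with FPKM, so relative depth was read from low-level genes. Columns were mapped to samples by the codes in the titles.

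FPKM values were used as deposited. Tests used limma 3.58.1 in R 4.3.3 on log2(FPKM + 0.5) over genes with at least 1 FPKM in at least 4 libraries of an organ, with all 24 libraries of the organ in a fit of 6 group means, trended and robust variance and Benjamini-Hochberg adjustment over all genes. edgeR was not used, because counts were not analysed here. Differences are on this log2 scale, which understates changes of low genes, with SE. For the rule contrast, elp2-5 against Col-0, only the fitted differences were used and no test of it is reported.

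The members and lists were chosen with earlier results of these data known. Named genes were the 15 members with the widest gap between elp2-5 and Col-0, the 8 most abundant in elp2-5 per organ, the 3 on each side of the threshold, up to 5 per direction in each tested comparison, those on lists, near ELP2, next to another member or of a shared family. Others named, and the related genes, were chosen after seeing values. Sequences come from the RefSeq TAIR10.1 genome (Python 3.11.15, BLAST 2.17.0). Alternatives were other pseudocounts, filters, scalings, a replicate block, fewer libraries, and other rule settings.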

Additional observations from a re-analysis of the deposited data

Results flagged for a closer look

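Of 54 groups of 4 libraries examined (the median level of the members in each group, and each gene called between FT and GC in the groups compared), 2 held a library set apart from the other 3, and chance gives about 1 in 20. In Col-0 leaves under GC, AT5G60250 had 1.67 FPKM in its highest library beside 0.93, 0.99 and 1.02 in the others. In met1-7 leaves under GC, UXS5 had 12.3 FPKM in its lowest library beside 13.6, 13.7 and 13.8.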

How the results depend on the processing

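The number of members followed the rule: 687 at a ratio of 1, 34 at 1.5 and 15 at 2, 45 with a lowest elp2-5 library of 5 FPKM, 62 after median-ratio scaling (61 of them members), and 75 to 82 without 1 library. The members' median elp2-5 minus Col-0 difference was 1.64 in leaves and 1.42 in roots with a pseudocount of 0.1 FPKM, and 1.26 and 1.22 with 1 FPKM. Members called between FT and GC with only the libraries compared in the fit were 1 in Col-0 leaves and 0 in elp2-5 leaves, Col-0 roots, elp2-5 roots and met1-7 roots. Median-ratio scaling gave 6 calls in met1-7 leaves. In Col-0 roots and in met1-7 roots 1 call was left without the filter, after median-ratio scaling and after quantile normalization. Leaving out 1 library gave 1 to 5 calls in Col-0 leaves, 0 to 1 in elp2-5 leaves, 6 to 9 in met1-7 leaves, 0 to 3 in Col-0 roots, 1 to 5 in elp2-5 roots, 1 to 3 in met1-7 roots, 21 to 28 between met1-7 and Col-0 in leaves and 21 to 29 in roots, and 0 for the difference of flight responses in both organs. The causes were not tested.

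Same-numbered libraries did not deviate together in every pair (correlations of -0.195 to 0.141), so the numbers were not taken as pairs. With the replicate number as a block, 1 member was called between FT and GC in Col-0 roots and 1 in met1-7 roots, each from 2 without it. The other counts of member calls stayed within 1.5 times under the block, but in elp2-5 roots the 3 calls became 2 higher and 1 lower (AT2G18150).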
